A study of Mus musculus with 2 samples.

Results

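The cells described here were IgA-expressing B cells of mouse Peyer's patches that lay outside the most frequent IgA heavy-chain rearrangement of each library. They were selected on measured values of their receptor transcripts. A member was a cell barcode with exactly 1 productive heavy chain, the constant gene IGHA, fewer than 100 unique molecular identifiers (UMIs, which count transcript molecules) on that chain, and neither IGHV4-1 joined to IGHJ3 nor IGHV5-17 joined to IGHJ4. The rule found 272 members among 6241 cells with 1 heavy chain, 143 of 3294 in the Cre+ library and 129 of 2947 in the Cre- library. They made up 143 of all 207 IgA cells of the Cre+ library and 129 of all 557 IgA cells of the Cre- library. The IgA cells left out were 54 IGHV5-17/IGHJ4 cells, 0 IGHV4-1/IGHJ3 cells and 10 cells with too many UMIs in the Cre+ library, and 1, 417 and 10 such cells in the Cre- library. The rule itself required IGHA and removed the most frequent rearrangements, so neither can serve as a check of the name of the cells. No member had a productive T cell receptor contig, but neither did any IgM, IgD or IgG cell within the same limits. No lineage of the remaining members exceeded 7 cells.

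Both libraries came from adult female mice homozygous for the floxed allele of H2-Ab1, which encodes the beta chain of MHC class II. The Cre+ library was from H2-Ab1 fl/fl; Villin:Cre+ mice, in which the Villin promoter drives the recombinase in intestinal epithelial cells, and the Cre- library from H2-Ab1 fl/fl; Villin:Cre- mice. White blood cells (CD45+) were enriched on magnetic columns, those of 4 mice of a genotype were pooled, and each pool gave 1 droplet library of 5' receptor transcripts. The series' design text writes Cre- for both genotypes, so the groups follow the sample labels, and H2-Ab1 was not measured. With 1 library per genotype there was no replicate check and no test, mice within a pool could not be told apart, and genotype and library cannot be told apart; intervals below are exact 95% Clopper-Pearson intervals for shares, which cover counting error only and are too narrow where cells share a lineage.

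The Cre+ library held 3748 barcodes and 355258 UMIs, and the Cre- library 3245 barcodes and 355985 UMIs. The libraries had 10 barcodes in common, and 0 Cre+ members and 1 Cre- member carried a barcode seen in the other library. Members were set beside the unswitched cells (IgM or IgD) and the IgG cells of the same library that met the same UMI limit and lacked the same V and J pairs. There were 2874 and 2236 unswitched cells and 143 and 107 IgG cells in the Cre+ and Cre- libraries. The member nearest the UMI limit had 99 UMIs in the Cre+ library and 77 in the Cre- library, and the IgA cells just above it had 103 and 283.

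Peyer's patches are lymphoid follicles of the small intestine whose germinal centres are chronically active in response to gut microbes and food. There B cells that bear IgM and IgD switch to IgA, and activation-induced deaminase changes single bases of their V(D)J exons while the cells divide. Cells that descend from 1 B cell share the V and J genes and the junction between them, the CDR3, and differ by such mutations. In the mouse the heavy-chain V, D, J and constant genes lie on chromosome 12 and the kappa V genes on chromosome 6.

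Cells of 1 library were put in a lineage where they shared the V gene, the J gene and the CDR3 length and their CDR3s chained together at 85% or more identity over nucleotides. The heavy-chain CDR3s of the 3 largest member lineages of each library are shown because most of them differ among the members of the lineage. Capitals mark the positions that vary among the members of a lineage, and a lineage printed wholly in lower case had identical CDR3s in all its members.
Cre+ IGHV1-12/IGHJ2, lineage 1, 5 cells: tgtTtAaggagggactttgactactgg
Cre+ IGHV1-12/IGHJ2, lineage 1, 1 cell: tgtGtAaggagggactttgactactgg
Cre+ IGHV1-12/IGHJ2, lineage 1, 1 cell: tgtTtGaggagggactttgactactgg
Cre+ IGHV1-72/IGHJ4, lineage 2, 1 cell: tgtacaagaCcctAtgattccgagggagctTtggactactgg
Cre+ IGHV1-72/IGHJ4, lineage 2, 1 cell: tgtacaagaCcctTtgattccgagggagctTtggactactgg
Cre+ IGHV1-72/IGHJ4, lineage 2, 1 cell: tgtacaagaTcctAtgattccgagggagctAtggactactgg
Cre+ IGHV1-72/IGHJ4, lineage 3, 3 cells: tgtgccctctatgattacggctgg
Cre- IGHV1-19/IGHJ1, lineage 1, 1 cell: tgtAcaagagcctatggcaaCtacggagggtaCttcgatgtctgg
Cre- IGHV1-19/IGHJ1, lineage 1, 1 cell: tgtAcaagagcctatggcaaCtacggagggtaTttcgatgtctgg
Cre- IGHV1-19/IGHJ1, lineage 1, 1 cell: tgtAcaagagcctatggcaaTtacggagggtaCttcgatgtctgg
Cre- IGHV1-19/IGHJ1, lineage 1, 1 cell: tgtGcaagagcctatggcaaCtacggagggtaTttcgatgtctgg
Cre- IGHV14-3/IGHJ4, lineage 2, 1 cell: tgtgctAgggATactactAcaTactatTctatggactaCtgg
Cre- IGHV14-3/IGHJ4, lineage 2, 1 cell: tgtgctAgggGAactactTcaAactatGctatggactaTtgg
Cre- IGHV14-3/IGHJ4, lineage 2, 1 cell: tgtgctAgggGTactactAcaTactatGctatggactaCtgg
Cre- IGHV14-3/IGHJ4, lineage 2, 1 cell: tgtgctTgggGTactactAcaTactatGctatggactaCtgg
Cre- IGHV1-12/IGHJ2, lineage 3, 3 cells: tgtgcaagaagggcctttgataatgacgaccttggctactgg

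The largest Cre+ lineage joined IGHV1-12 (chr12:114615850-114616143, GRCm38.p6) to IGHJ2 and held 7 members. It had 3 different CDR3 sequences, and 5 of the cells had the same sequence. All 6 of its members with a light chain used IGKV1-133, with 4 different light-chain CDR3 sequences among them. The largest Cre- lineages held 4 members each. The IGHV1-19/IGHJ1 lineage had a different CDR3 in each of its 4 cells, with 3 varying positions that were all transitions, 2 of them silent, and all 4 cells used IGKV4-72. The IGHV14-3/IGHJ4 lineage had 7 varying positions in 4 cells, 6 of them changing the amino acid, and all 4 cells used IGKV17-127 with a single light-chain CDR3 sequence.

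The members were spread over many lineages in both libraries. The 143 Cre+ members fell into 116 lineages and the 129 Cre- members into 110. Most lineages were a single cell, 96 in the Cre+ library and 96 in the Cre- library. There were 17 pairs, 2 lineages of 3 and 1 of 7 in the Cre+ library, against 11 pairs, 1 lineage of 3 and 2 of 4 in the Cre- library. Lineages of 2 or more held 47 of 143 Cre+ members (32.9%, interval 25.2 to 41.2) and 33 of 129 Cre- members (25.6%, 18.3 to 34.0). The difference was 7.29 percentage points with an interval of -4.07 to 18.3, which includes 0. Drawn down to 129 members, the Cre+ library gave an expected 106 lineages with 30.5% of members in lineages of 2 or more, against 110 lineages and 25.6% in the Cre- library. With lineages built at 90% identity and the same draw, the order turned, at 24.2% in the Cre+ library and 25.6% in the Cre- library.

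**Figure D1:**
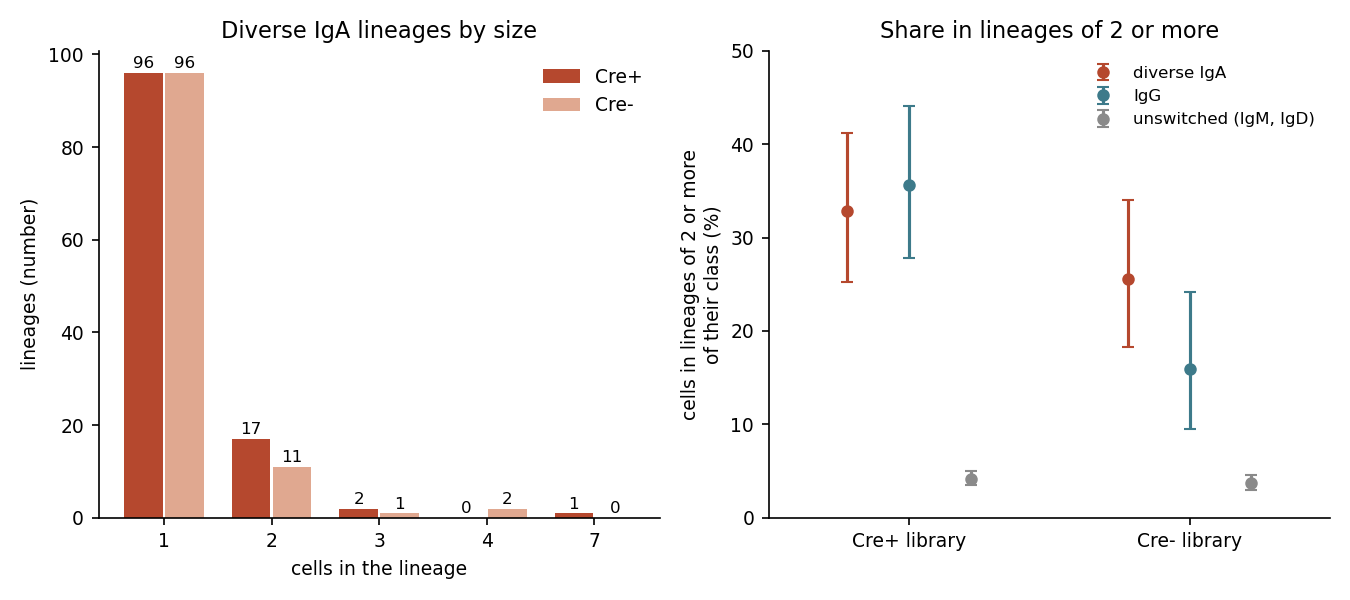
Left, number of lineages (vertical axis) by the number of diverse IgA cells in the lineage (horizontal axis), for the Cre+ and Cre- libraries. Right, share of cells in lineages of 2 or more of their own class, in percent, for diverse IgA, IgG and unswitched cells, with exact 95% intervals; single-cell lineages numbered 96 in each library, and the IgA share of 32.9% and 25.6% stood above the unswitched share of 4.18% and 3.71%.

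Unswitched cells were in lineages of 2 or more of their own class far less often, at 4.18% (3.47 to 4.97) in the Cre+ library and 3.71% (2.97 to 4.58) in the Cre- library, although many more unswitched cells were sampled. IgG cells were in such lineages at 35.7% (27.8 to 44.1) in the Cre+ library and 15.9% (9.54 to 24.2) in the Cre- library. The member share was thus above the unswitched share by 28.7 points (21.0 to 37.1) in Cre+ and 21.9 points (14.6 to 30.3) in Cre-. No member had a partner by the lineage rule among the members of the other library, 0 of 143 and 0 of 129, with exact upper bounds of 2.55% and 2.82%. The same share was not computed for unswitched or IgG cells, so whether like numbers of other cells overlap as little was not tested.

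Members of 1 lineage usually differed in sequence in 1 chain or the other. Of the lineages of 2 or more whose cells shared the light V gene, 11 of 17 in the Cre+ library and 7 of 14 in the Cre- library held 2 or more heavy-chain CDR3 sequences. Light-chain CDR3s differed in 11 of 17 Cre+ lineages and 5 of 14 Cre- lineages, and at least 1 chain differed in 14 of 17 and 9 of 14. The heavy CDR3s varied at 26 positions in the Cre+ library, 15 of them transitions and 20 of them changing the amino acid. In the Cre- library they varied at 19 positions, of which 12 were transitions and 11 changed the amino acid. The excluded rearrangements were nearly uniform beside this: 53 of the 54 Cre+ IGHV5-17/IGHJ4 cells had the same CDR3, and so did 416 of the 417 Cre- IGHV4-1/IGHJ3 cells.

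Some lineages crossed isotypes. In the Cre+ library 17 of 143 members (11.9%, 7.08 to 18.4) were in a lineage that also held cells of another isotype, against 5 of 129 Cre- members (3.88%, 1.27 to 8.81), a difference of 8.01 points (1.12 to 15.0). Between the libraries no shared descent is possible. A partner of another isotype in the other library was found for 2 of 143 Cre+ members (1.40%) and 2 of 129 Cre- members (1.55%). These counts took direct partners, while lineages also chain through other cells, so the counts can understate the background of the lineage shares. Requiring the same light V gene within the lineage as well left 9 Cre+ members (6.29%, 2.92 to 11.6) and 2 Cre- members (1.55%, 0.188 to 5.49). The interval of that difference, -0.443 to 10.2 points, included 0. Under that stricter rule the related Cre+ cells were 5 IgM cells in 4 lineages, 2 IgG1 cells in 1 lineage and 3 IgG2b cells in 2 lineages, while the related Cre- cells were 2 IgG2b cells in 2 lineages. The IGHV1-72/IGHJ4 lineage of 3 Cre+ members with identical CDR3s, shown above, held 1 IgM cell.

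The data hold the CDR3 and no other part of the V region. Mismatches, which somatic mutation can leave, were therefore read there alone. At the J end, the 9 nucleotides before the last codon were set against the most common such sequence of each J gene in unswitched cells, shown here because the measure rests on them; capitals are not used.
IGHJ1: ttcgatgtc
IGHJ2: tttgactac
IGHJ3: tttgcttac
IGHJ4: atggactac

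At least 1 mismatch at the J end was present in 64 of 143 Cre+ members (44.8%, 36.4 to 53.3) and 49 of 129 Cre- members (38.0%, 29.6 to 46.9). Mismatches also come from loss of J bases when the joint is made, and in unswitched cells they amounted to 15.4% in the Cre+ library and 15.3% in the Cre- library. Weighted to the J gene usage of the members, the unswitched shares were 17.8% and 15.3%, and the member shares were 2.52 times and 2.48 times these. CDR3 length, which was shorter on average in members, was not weighted for, and its part in the excess was not tested. The members of the genotypes differed by 6.77 points, with an interval of -5.45 to 18.7 that includes 0. IgG cells had mismatches in 25.2% (18.3 to 33.1) of Cre+ cells and 43.0% (33.5 to 52.9) of Cre- cells.

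The contrast differed by J gene. Among IGHJ4 cells 16 of 31 Cre+ members (51.6%) and 11 of 26 Cre- members (42.3%) had a mismatch, against 3.68% and 3.10% of unswitched IGHJ4 cells. IGHJ3 members had 58.8% and 52.8%, against 15.0% and 16.7% of unswitched IGHJ3 cells. For IGHJ2 the member shares were 39.1% and 38.1%, against 29.1% and 29.3% of unswitched IGHJ2 cells, and the intervals of both differences included 0. IGHJ1 members were few, 3 of 14 Cre+ cells (21.4%) and 3 of 25 Cre- cells (12%) with a mismatch, against 3.68% and 2.59% of unswitched IGHJ1 cells.

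**Figure D2:**
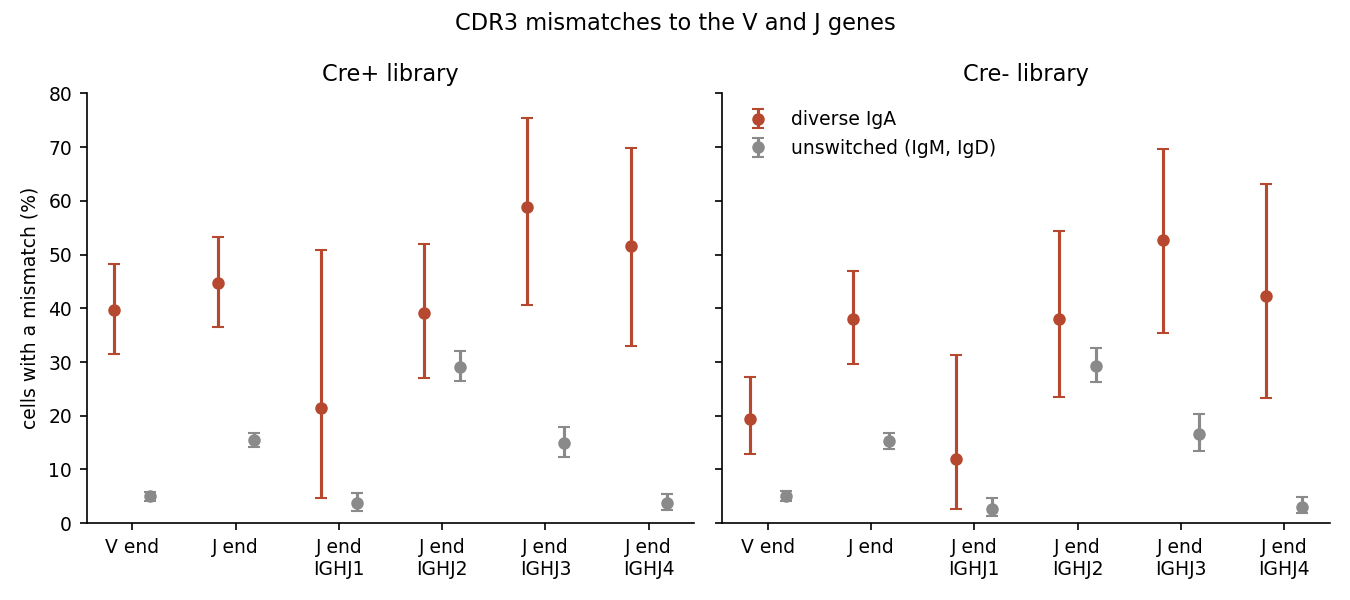
Share of cells (vertical axis, percent, with exact 95% intervals) with a mismatch at the V end or the J end of the heavy-chain CDR3, and at the J end by J gene, for diverse IgA and unswitched cells of the Cre+ (left) and Cre- (right) libraries. The V-end share of diverse IgA cells is 39.7% in Cre+ and 19.4% in Cre-, while unswitched cells are at 4.988% and 4.995%.

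At the V end, the first 6 nucleotides of the CDR3 were set against the most common sequence of the same V gene in unswitched cells; this measure was chosen after the data were seen, and it needed 10 or more unswitched cells of the V gene. A mismatch was present in 56 of 141 Cre+ members (39.7%, 31.6 to 48.3) and 25 of 129 Cre- members (19.4%, 13.0 to 27.3). The unswitched background was 4.988% in the Cre+ library and 4.995% in the Cre- library. Unlike at the J end, it was not weighted to the gene usage of the members, and it varied by V gene. The most common sequence was held by 91 of 117 unswitched IGHV6-3 cells over both libraries, against 313 of 329 unswitched IGHV1-26 cells. Cre+ members exceeded Cre- members by 20.3 points (9.01 to 31.1). The IGHV1-12 lineage of 7 contributed to this, and without the largest lineages the shares were 36.6% and 18.2%, a difference of 18.4 points (6.94 to 29.2). With each lineage counted once they were 35.7% and 19.1%, a difference of 16.6 points (4.32 to 28.3). With the first 9 nucleotides, where the unswitched background was 23.1% and 22.3%, the shares were 58.9% and 46.5%, and the interval of the difference, -0.080 to 24.4, included 0. IgG cells had V-end mismatches in 27.5% (20.3 to 35.8) of Cre+ cells and 18.7% (11.8 to 27.4) of Cre- cells.

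Because the CDR3 starts at the codon of the conserved cysteine, mismatches within the 6 nucleotides could lie almost only in the second codon. At position 4, counted from the first base of the CDR3, 28 of 141 Cre+ members (19.9%) and 12 of 129 Cre- members (9.30%) differed, against 0.814% and 0.772% of unswitched cells. At position 5 the counts were 22 Cre+ members (15.6%) and 2 Cre- members (1.55%), against 1.03% and 1.32% of unswitched cells. Without the largest lineages position 5 differed in 15 of 134 Cre+ members (11.2%, 6.40 to 17.8) and 2 of 121 Cre- members (1.65%, 0.201 to 5.84). Position 6 differed in 14.2% and 10.1% of members and, with the highest background of the 6 positions, in 4.53% and 4.50% of unswitched cells. No member and no unswitched cell differed at position 1 or 2, which the start at the cysteine codon fixes in advance. A mismatch at the V or the J end was found in 65.2% (56.8 to 73.1) of Cre+ members and 49.6% (40.7 to 58.5) of Cre- members, against 19.4% and 19.2% of unswitched cells. The difference between the genotypes was 15.6 points (3.32 to 27.5), and with each lineage counted once it was 13.6 points with an interval of -0.059 to 26.7.

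J-end mismatches by lineage size and depth were given as descriptions. Members in lineages of 2 or more had a mismatch in 59.6% (44.3 to 73.6) of Cre+ cells and 39.4% (22.9 to 57.9) of Cre- cells. Members alone in their lineage had 37.5% in each library. Members with 10 or more heavy-chain UMIs had a mismatch in 48 of 96 Cre+ cells and 36 of 84 Cre- cells (42.9%), and those with fewer in 34.0% and 28.9%. The intervals of these differences, -2.51 to 32.7 points in Cre+ and -4.83 to 30.8 points in Cre-, included 0.

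Counted by cell, D gene usage of the members differed from that of unswitched cells in both libraries. IGHD1-1 (chr12:113482170-113482192), the D gene most used by unswitched cells, was called in 33 of 143 Cre+ members (23.1%, 16.4 to 30.9) and 20 of 129 Cre- members (15.5%, 9.73 to 22.9). In unswitched cells it was called in 33.5% (31.8 to 35.3) of Cre+ cells and 33.5% (31.6 to 35.5) of Cre- cells. The Cre+ cells with IGHD1-1 were in 31 lineages and the Cre- cells in 20. With each lineage counted once the member shares were 25.9% (18.2 to 34.8) and 18.2% (11.5 to 26.7), and the interval of the Cre+ difference from unswitched cells, -15.1 to 1.95 points, then included 0, while that of the Cre- difference was -22.1 to -6.34 points. Within CDR3s of 11 to 16 amino acids, IGHD1-1 was called in 19.8% (12.5 to 28.9) of Cre+ members and 15.5% (9.15 to 24.0) of Cre- members, against 30.5% and 29.6% of unswitched cells, differences of -10.7 points (-18.2 to -1.36) and -14.1 points (-20.8 to -5.32). Mean CDR3 lengths in that window were 13.3 amino acids in Cre+ members and 13.8 in Cre- members, against 13.8 and 13.8 in unswitched cells, so a gap in length remained in the Cre+ library. IgG cells used IGHD1-1 at 40.6% in Cre+ and 27.1% in Cre-.

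No D gene was called in 26 Cre+ members (18.2%) and 14 Cre- members (10.9%), against 8.04% and 8.50% of unswitched cells; a D segment that is short or carries many changes can go uncalled. Among members with a D gene called, IGHD1-1 took 28.2% in Cre+ and 17.4% in Cre-, against 36.4% and 36.7% of unswitched cells, and the Cre+ difference of -8.23 points had an interval of -16.4 to 1.02. Of members with a D gene called, the IGHD2 family took 46.2% in Cre+ and 54.8% in Cre-, against 39.4% and 43.8% of such unswitched cells. The Cre- difference of 10.99 points had an interval of 1.19 to 20.5, which became -2.99 to 18.1 with each lineage counted once. Of all members, IGHD2 took 37.8% in Cre+ and 48.8% in Cre-, against 36.3% and 40.1% of unswitched cells. Also of all members, IGHD4 took 11.9% and 12.4%, and IGHD3 6.29% and 5.43%, and the intervals of the differences from unswitched cells included 0. IGHD5 took 2.80% of Cre+ members and 6.98% of Cre- members, against 2.61% and 2.19% of unswitched cells, and the Cre- difference of 4.79 points had an interval of 0.984 to 10.7.

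**Figure D3:**
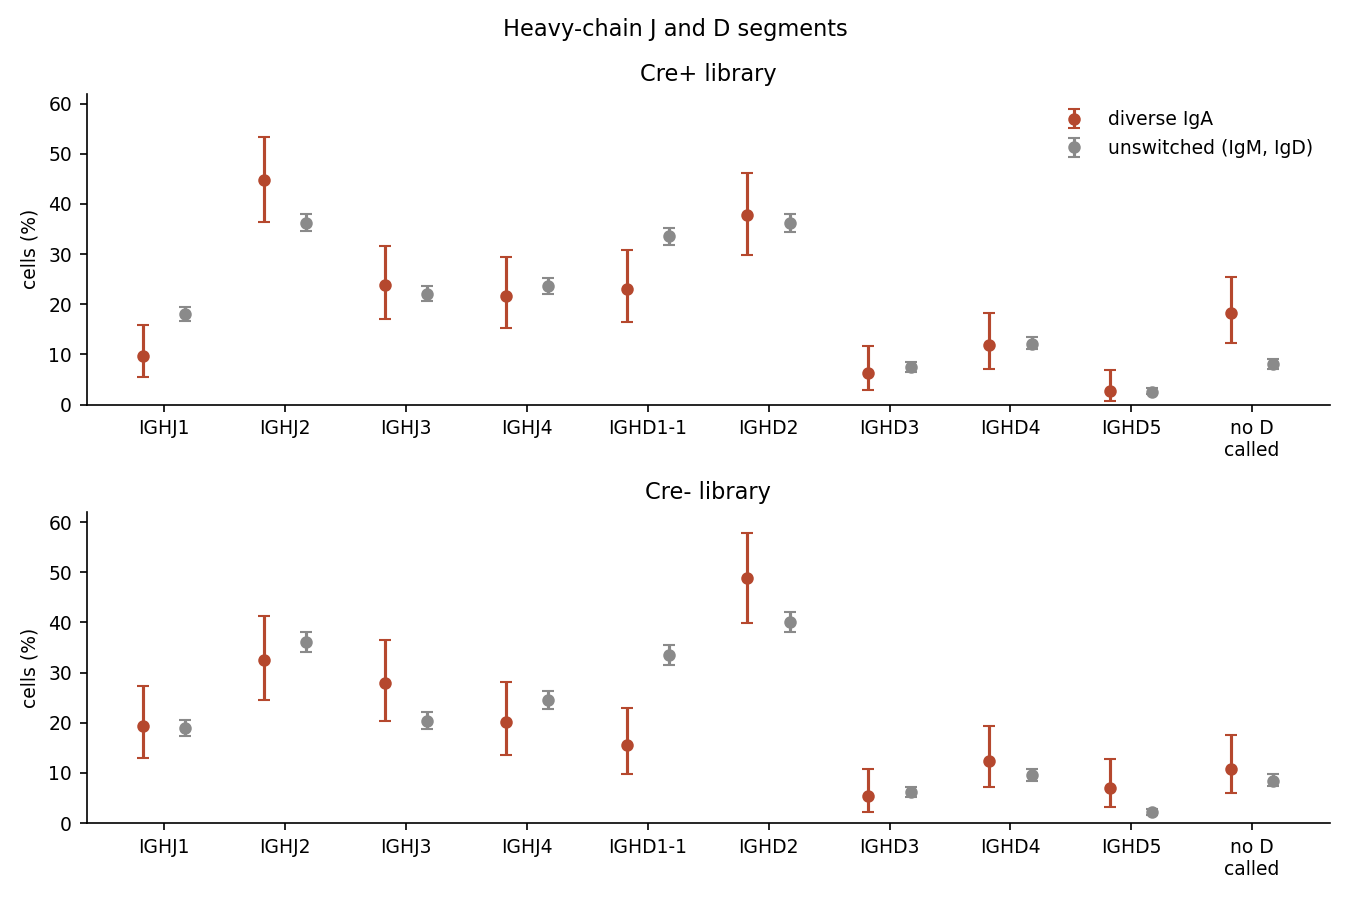
Share of cells (vertical axis, percent, with exact 95% intervals) with each IGHJ gene, IGHD1-1, each other IGHD family, or no D gene called, for diverse IgA and unswitched cells of the Cre+ (top) and Cre- (bottom) libraries. IGHD1-1 is lower in diverse IgA cells in both libraries, at 23.1% and 15.5% against 33.5% and 33.5% of unswitched cells.

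Counted by cell, J gene usage of the members differed between the libraries at 2 genes, and neither difference held with each lineage counted once. IGHJ1 was used by 9.79% of Cre+ members and 19.4% of Cre- members, a difference of -9.59 points (-18.6 to -0.735), where unswitched cells had 17.99% and 19.0%. IGHJ2 was used by 44.8% of Cre+ members and 32.6% of Cre- members, a difference of 12.2 points (0.087 to 23.9). Unswitched cells had 36.3% and 36.1%. IgG cells had 45.5% in Cre+ and 34.6% in Cre-, so the IGHJ2 contrast was not particular to members. The intervals of members against IgG cells, -12.6 to 11.2 points in Cre+ and -14.7 to 10.5 points in Cre-, included 0. With each lineage counted once, IGHJ1 was at 12.1% and 17.3% of members, a difference of -5.20 points (-15.1 to 4.64), and IGHJ2 at 42.2% and 33.6%, a difference of 8.61 points (-4.66 to 21.5). IGHJ3 at 23.8% and 27.9% and IGHJ4 at 21.7% and 20.2% had differences whose intervals included 0.

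Heavy-chain V genes were used broadly. The Cre+ members used 53 IGHV genes and the Cre- members 52, 61 in all, out of 95 used by unswitched cells. The IGHV1 family, the largest of the mouse, took 62.2% of Cre+ members and 65.1% of Cre- members, against 63.2% and 62.9% of unswitched cells. IGHV5 took 9.09% and 8.53%, IGHV6 6.29% and 5.43%, IGHV9 5.59% and 2.33%, and IGHV2 3.50% and 3.88%. IGHV14 took 2.80% and 4.65%, IGHV3 4.20% and 1.55%, and IGHV8 1.40% and 2.33%, and none of these family shares differed from unswitched cells beyond the intervals. IGHV10, at 2.80% of Cre+ members and 5.43% of Cre- members, exceeded unswitched cells (2.10%) by 3.32 points (0.035 to 8.79) in the Cre- library, an interval that became -0.186 to 9.38 with each lineage counted once.

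An IGHV gene was called high where 5 or more members used it, its share was at least 2 times that of unswitched cells of the same library and the intervals did not overlap. In the Cre+ library 1 of 11 such genes met this (9.09%), and in the Cre- library 2 of 8 (25%). The Cre+ gene was IGHV1-12, with 11 members (7.69%) against 1.25% of unswitched cells. These were only 3 lineages, and with each lineage counted once its share was 2.59% (0.537 to 7.37). In the Cre- library IGHV1-12 was used by 3 members of 1 lineage (2.33%). The Cre- genes were IGHV1-19 (chr12:114708648-114708941) and IGHV10-1 (chr12:114479007-114479451). IGHV1-19 was used by 5 Cre+ members in 3 lineages (3.50%) and 10 Cre- members in 6 lineages (7.75%), against 1.04% and 1.03% of unswitched cells. Its Cre- share with each lineage counted once was 5.45%, above unswitched cells by 4.41 points (0.940 to 10.5). IGHV10-1 was used by 1 Cre+ member (0.699%) and 6 Cre- members in 5 lineages (4.65%), against 1.11% and 1.03% of unswitched cells. Its Cre- share by lineage was 4.55% (1.49 to 10.3), which overlapped the unswitched interval and ended the call, while the difference of 3.50 points had an interval of 0.399 to 9.25.

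The genes with the most members were not all above the unswitched level. IGHV1-26, the most used over both libraries, had 10 Cre+ members in 9 lineages (6.99%) and 8 Cre- members in 8 lineages (6.20%), against 6.89% and 5.86% of unswitched cells. IGHV1-64 had 5 and 8 members, IGHV1-82 5 and 7, IGHV9-3 7 and 3, IGHV1-72 8 and 2, IGHV1-55 6 and 3 and IGHV14-3 4 and 5 in Cre+ and Cre-. No difference between the libraries in an IGHV gene named here had an interval that excluded 0.

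**Figure D4:**
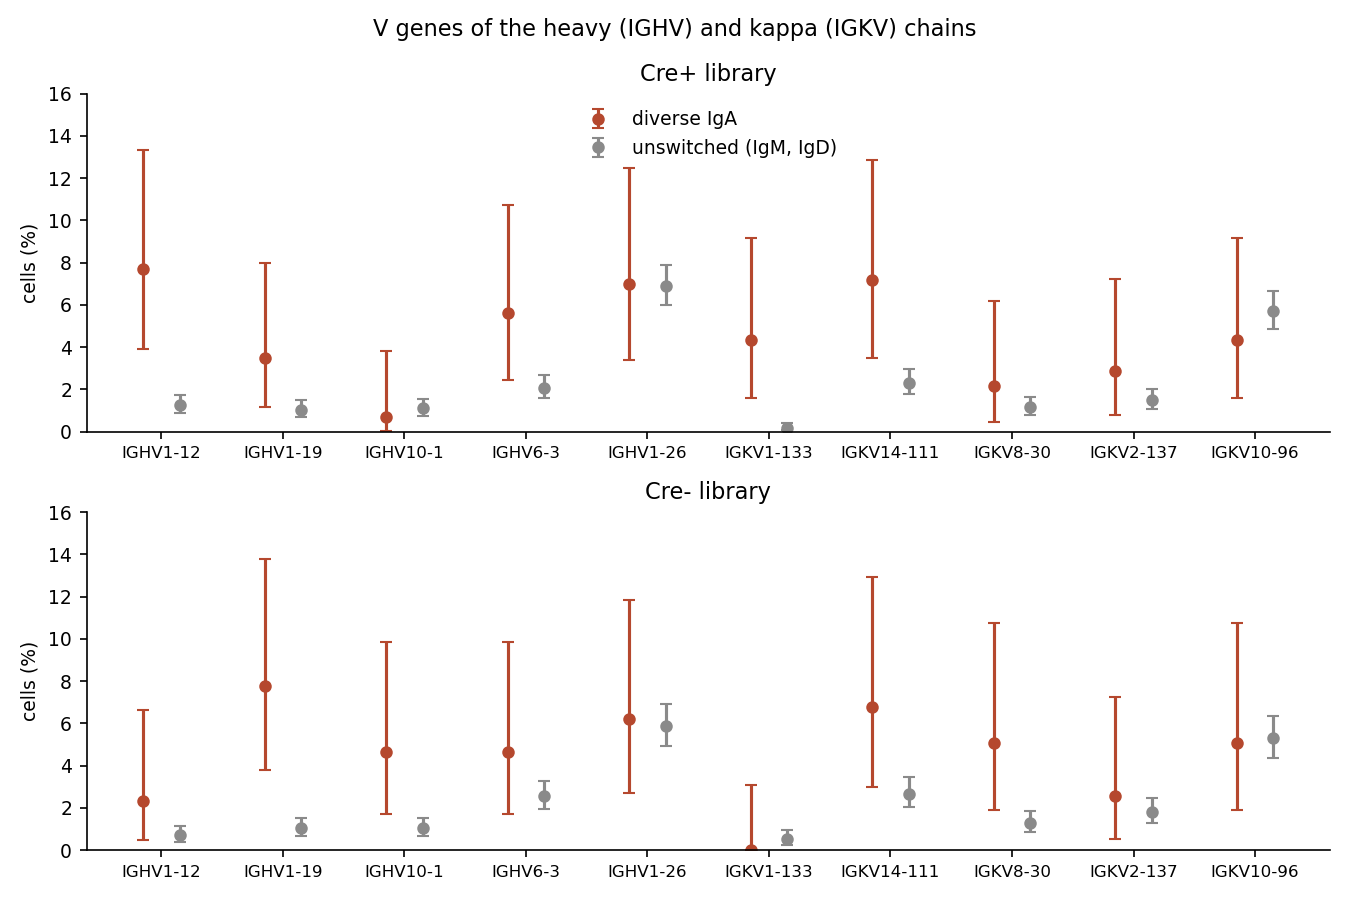
Share of cells (vertical axis, percent, with exact 95% intervals) that used each of 5 IGHV and 5 IGKV genes named in the text, for diverse IgA and unswitched cells of the Cre+ (top) and Cre- (bottom) libraries; IGKV shares are of cells with a kappa chain. IGKV14-111 is above the unswitched share in both libraries, at 7.19% and 6.78% against 2.32% and 2.67%.

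IGHV6-3 (chr12:114391712-114392010) was used by 8 Cre+ members in 7 lineages (5.59%) and 6 Cre- members in 5 lineages (4.65%), against 2.09% and 2.55% of unswitched cells, differences of 3.51 points (0.303 to 8.66) and 2.10 points (-0.916 to 7.34). Its light-chain partner was noticed after the values were seen and is given as a description. IGKV2-137 (chr6:67555636-67556216) accompanied IGHV6-3 in 4 Cre+ members of 3 lineages and 2 Cre- members of 1 lineage, 6 of 14 in all (42.9%, 17.7 to 71.1). It accompanied IGHV6-3 in 2 of 117 unswitched cells (1.71%, 0.208 to 6.04), and accompanied other V genes in 1 of 258 members. These chains are shown because their heavy CDR3s have different lengths and J genes while their light CDR3s have the same length and J gene; capitals mark the first 3 codons of the heavy CDR3.
Cre+ heavy chain IGHV6-3/IGHJ3, 2 cells: TGCACAGATgttactacgttaccgcgctgg
Cre+ heavy chain IGHV6-3/IGHJ2, 1 cell: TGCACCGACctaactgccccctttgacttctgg
Cre+ heavy chain IGHV6-3/IGHJ4, 1 cell: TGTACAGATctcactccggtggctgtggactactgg
Cre+ light chain IGKV2-137/IGKJ5, 2 cells: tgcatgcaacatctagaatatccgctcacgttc
Cre+ light chain IGKV2-137/IGKJ5, 1 cell: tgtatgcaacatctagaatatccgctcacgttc
Cre+ light chain IGKV2-137/IGKJ5, 1 cell: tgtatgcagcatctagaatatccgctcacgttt
Cre- heavy chain IGHV6-3/IGHJ2, 2 cells: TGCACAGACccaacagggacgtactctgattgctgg
Cre- light chain IGKV2-137/IGKJ5, 2 cells: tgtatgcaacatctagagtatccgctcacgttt

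The heavy CDR3s of this pairing used IGHJ2, IGHJ3 and IGHJ4 and ran from 30 to 36 nucleotides. The light CDR3s all used IGKJ5 and had 33 nucleotides. In general the pairings were diverse: members formed 112 pairs of heavy and light V genes in the Cre+ library and 100 in the Cre- library, 11 of them seen in both. No combination of heavy V, J and CDR3 amino acids was in both libraries. Among light chains, 4 combinations of V gene and CDR3 nucleotides were in both, of 127 in Cre+ and 105 in Cre-. These overlaps are given for members alone, and whether other cells in like numbers overlap as little was not tested.

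Among kappa V genes and counted by cell, IGKV14-111 was above the unswitched level in both libraries. IGKV14-111 (chr6:68256404-68256869) was used by 10 of 139 Cre+ members with kappa (7.19%, 3.50 to 12.8) and 8 of 118 Cre- members (6.78%, 2.97 to 12.9). In unswitched cells its share was 2.32% (1.79 to 2.96) in Cre+ and 2.67% (2.02 to 3.45) in Cre-. The Cre+ cells were 10 lineages by the heavy chain and the Cre- cells 6. By the rule above, 2 of 11 IGKV genes in Cre+ (18.2%) and 1 of 8 in Cre- (12.5%) were called high. These were IGKV14-111 and IGKV1-133 in Cre+ and IGKV8-30 in Cre-, while the Cre- share of IGKV14-111 missed the call because its interval overlapped that of unswitched cells. The whole IGKV14 family took 9.35% of Cre+ members and 9.32% of Cre- members, against 3.73% and 3.81% of unswitched cells. The differences were 5.63 points (1.28 to 11.8) and 5.51 points (0.841 to 12.3). Among IgG cells with kappa the family took 5.97% (2.61 to 11.4) in Cre+ and 3.96% (1.09 to 9.83) in Cre-. The Cre+ difference of members from IgG cells, 3.38 points, had an interval of -3.55 to 10.4 that included 0. Counted by lineage, the Cre- intervals against unswitched cells became -0.5005 to 10.1 points for IGKV14-111 and -0.382 to 11.5 points for the family, while the Cre+ intervals of 1.44 to 12.4 points and 1.24 to 13.1 points excluded 0.

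IGKV1-133 was used by 6 Cre+ members, all of the 7-cell IGHV1-12 lineage, and by 0 of 118 Cre- members, which allows a share of up to 3.08% by the exact upper bound. IGKV8-30 was used by 3 Cre+ members (2.16%) and by 6 Cre- members in 6 lineages (5.08%), against 1.14% and 1.29% of unswitched cells. Other widely used kappa genes stood near the unswitched level, with IGKV1-110 at 5.76% and 4.24%, IGKV10-96 at 4.32% and 5.08%, IGKV1-117 at 3.60% and 5.08% and IGKV6-23 at 4.32% and 5.08% of Cre+ and Cre- members.

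Lambda light chains, the minor class in the mouse, were carried by 1 of 140 Cre+ members (0.714%, 0.018 to 3.92) and 5 of 123 Cre- members (4.07%, 1.33 to 9.23). Unswitched cells had 5.01% in Cre+ and 5.11% in Cre-. Lambda shares of IgG cells were 2.19% in Cre+ and 3.81% in Cre-. The Cre+ difference of members from IgG cells, -1.48 points, had an interval of -5.61 to 2.17 that included 0. The Cre+ members were below their unswitched cells by 4.30 points (the difference had an interval of -5.41 to -1.004), while the interval between the members of the genotypes, -8.56 to 0.858 points, included 0. The lambda cells used IGLV1 in 1 Cre+ and 4 Cre- members and IGLV2 in 0 Cre+ and 1 Cre- member.

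The heavy-chain CDR3 of members, counted with its conserved first and last residues, had a median of 13 amino acids in Cre+ (interquartile range 11 to 15) and 14 in Cre- (12 to 15), against 14 in unswitched cells of each library. The means over cells were 13.1 ± 2.93 and 13.6 ± 2.32 amino acids (SD over 143 and 129 cells), against 14.1 ± 2.59 and 14.2 ± 2.58 in unswitched cells. CDR3s of 10 or fewer amino acids were found in 26 Cre+ members (18.2%, 12.2 to 25.5) and 16 Cre- members (12.4%, 7.26 to 19.4), against 8.84% and 8.14% of unswitched cells. IgG cells had such CDR3s at 9.79% (5.46 to 15.9) in Cre+ and 18.7% (11.8 to 27.4) in Cre-. The 7-cell IGHV1-12 lineage has a CDR3 of 9 amino acids, and with each lineage counted once the shares were 12.1% and 12.7%, and the intervals against unswitched cells then included 0 in both libraries. Tyrosine, a residue common in antibody binding sites and encoded repeatedly by IGHD1-1, made up 17.3% of CDR3 residues in Cre+ members and 17.2% in Cre- members on average, against 19.6% and 19.9% in unswitched cells. In IgG cells it made up 21.6% in Cre+ and 16.9% in Cre-, so the lower level was not particular to members in the Cre- library.

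**Figure D5:**
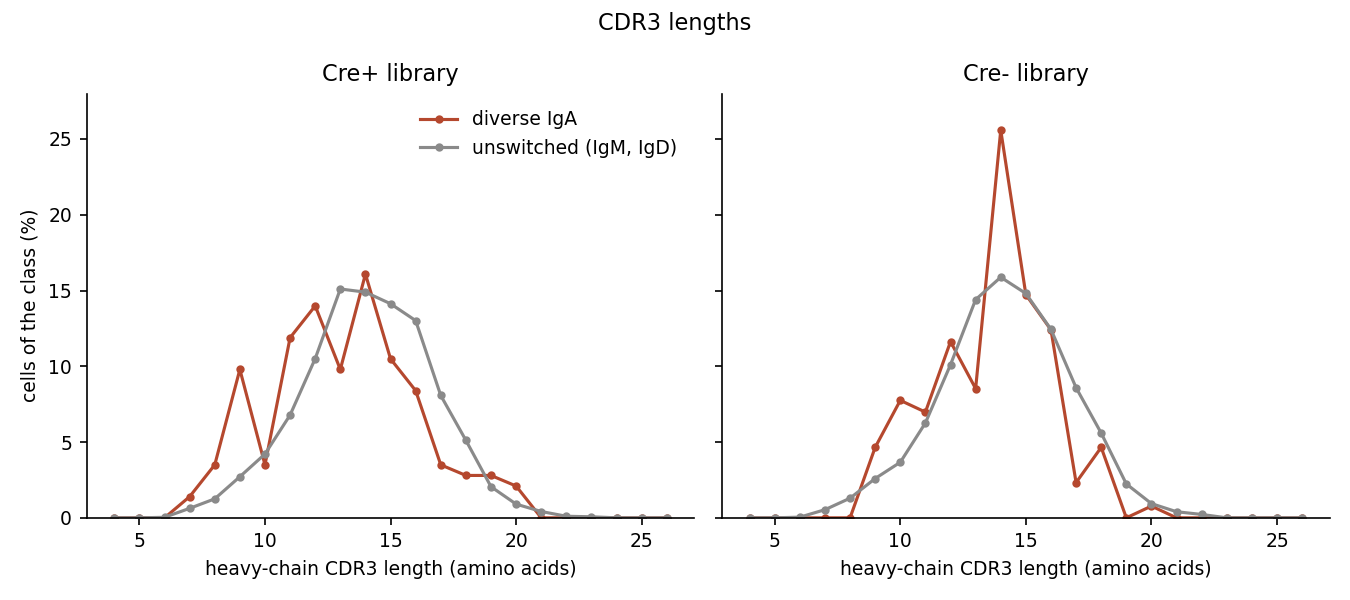
Share of cells of a class (vertical axis, percent) by heavy-chain CDR3 length in amino acids (horizontal axis), for diverse IgA and unswitched cells of the Cre+ (left) and Cre- (right) libraries. Diverse IgA cells peak at 14 amino acids in both libraries. The Cre+ cells have a further peak of 14 cells (9.79%) at 9 amino acids. Of those cells 7 are of the largest IGHV1-12/IGHJ2 lineage, and an IGHV1-12/IGHJ3 and an IGHV1-19/IGHJ2 lineage gave 2 each.

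Transcript numbers are given as a description, since the rule set their upper limit. Members had a median of 16 heavy-chain UMIs in Cre+ (interquartile range 8 to 28) and 14 in Cre- (8 to 23), against 8 and 9 in unswitched cells and 11 and 12 in IgG cells. The median ratio of light-chain to heavy-chain UMIs was 2.58 in Cre+ members and 2.48 in Cre- members, against 3.48 and 3.56 in unswitched cells. No light chain was found in 3 Cre+ and 6 Cre- members.

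A second productive light chain was present in 14 of 143 Cre+ members (9.79%, 5.46 to 15.9) and 2 of 129 Cre- members (1.55%, 0.188 to 5.49), a difference of 8.24 points (2.38 to 14.5), and of 6.80 points (0.434 to 13.7) with each lineage counted once. Unswitched cells had 9.26% in Cre+ and 8.99% in Cre-. IgG cells had 4.20% (1.56 to 8.91) in Cre+ and 4.67% (1.53 to 10.6) in Cre-, and the intervals overlapped those of the members in both libraries. The second chain had a median of 13 UMIs in the 14 Cre+ members, and in the 2 Cre- members it had 2 and 59. The light chain of the most frequent IgA rearrangement of the same library was carried by 1 Cre+ and 1 Cre- member. At least 1 T cell receptor contig, none of them productive, was in 12 Cre+ members (8.39%) and 7 Cre- members (5.43%), against 3.69% and 2.64% of unswitched cells. With cells of at most 1 light chain, the V-end mismatch shares of members were 41.7% and 18.9%. The part of the T cell receptor contigs in these results was not tested.

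The members took about the same share of each library. They made up 143 of 3276 Cre+ cells with a constant gene called (4.37%, 3.69 to 5.12) and 129 of 2937 such Cre- cells (4.39%, 3.68 to 5.20), a difference of -0.027 points (-1.08 to 1.01). Taken outside the excluded rearrangements, the shares were 4.48% in Cre+ and 5.16% in Cre-, a difference of -0.686 points (-1.85 to 0.453).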

How the data were processed

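Receptor contigs of 2 pooled libraries of Peyer's patch cells were used. Per the file headers, the authors deposited contigs with V, D, J and constant genes, CDR3s, and counts of reads and UMIs; the counts were not normalised. Cell Ranger and GRCm38 are named in the submitters' processing notes; the Cell Ranger version was not given in the sources used here. Coordinates come from a RefSeq table of GRCm38.p6, which held all 61 IGHV and 58 IGKV genes of members.

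Members and lists were chosen with earlier results of these data known. Heavy chains were productive IGH contigs, and the light chain was the productive contig with the most UMIs. Barcodes with several heavy chains were left out and no doublet caller was run. Lineages were built within a library by single linkage. Named genes were all IGHJ genes, lambda genes, IGHV and IGHD families with 5 or more members, the 10 IGHV and 5 IGKV genes with the most members, genes called high, and lineages of 3 or more; other genes were named after their values were seen. Intervals of differences combine both exact intervals. The depth was 22003594 reads in the Cre+ library and 19982305 in the Cre- library, and the 3024 and 2425 heavy-chain UMIs of members limit the precision. On simulated data of 570 cells in 300 lineages, with CDR3s of random bases and few changes per cell, the lineage rule recovered all 300. Real CDR3s share V and J ends, so the simulation does not measure how often unrelated cells are joined. Alternatives were other barcode, UMI, lineage and window rules. Python 3.11.15, pandas 2.3.3, numpy 2.4.6 and scipy 1.17.1 were used.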

Additional observations from a re-analysis of the deposited data

Results flagged for a closer look

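Some features of members stood on opposite sides of the unswitched cells of the same library in the Cre+ and Cre- libraries. The difference of these differences was not tested. IGHJ1 was -8.20 points from unswitched cells in Cre+ and 0.417 points in Cre-, and IGHJ2 was 8.46 points in Cre+ and -3.58 points in Cre-. IgG cells also used IGHJ2 more often in Cre+ (45.5%) than in Cre- (34.6%). Cells with 2 or more light chains were 0.535 points from unswitched cells in Cre+ and -7.44 points in Cre-. The IGHV1 family was -0.949 points in Cre+ and 2.24 points in Cre-. Among kappa families, IGKV1 was 5.89 points in Cre+ and -2.86 points in Cre-, and IGKV3 was 0.260 points in Cre+ and -5.21 points in Cre-. The mean CDR3 charge was -0.071 from unswitched cells in Cre+ and 0.088 in Cre-. Of the intervals of these shares against unswitched cells, those of IGHJ1 in Cre+ (-12.8 to -1.95) and of second light chains in Cre- (-9.30 to -3.34) excluded 0, and the others included it: IGHJ2, IGHV1, IGKV1 and IGKV3 in both libraries, IGHJ1 in Cre- and second light chains in Cre+. With each lineage counted once the Cre+ interval of IGHJ1 became -11.2 to 1.81.

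IgA cells with 100 or more UMIs were outside the members. In the Cre+ library 4 of 10 such cells were in a lineage with members, which involved 7 members in 4 lineages, and in the Cre- library 0 of 10 were.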

How the results depend on the processing

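No paired analysis was possible because each genotype had 1 library. Of 212 shares, medians and differences recomputed under alternatives, 196 lay within the interval of the reported value and 16 moved outside it. A value within that interval can still end a call: counting each lineage once brought 0 into the intervals between the genotypes for IGHJ1, IGHJ2 and a mismatch at either end. It also did so against unswitched cells for IGHJ1, IGHD1-1, IGHV1-12, IGHV1-19 and short CDR3s in Cre+, and for IGHV10, IGHD2, IGKV14 and IGKV14-111 in Cre-. It took 0 out of the interval for IGHJ3 in Cre-, at 8.66 points (0.211 to 18.2). At 90% identity, lineages of 2 or more held 24.2% of Cre+ and 25.6% of Cre- members at equal numbers, which turns the order. Lineages at 90% identity, and lineages with the same light V gene, each put 6.29% of Cre+ members in lineages with another isotype. With identical CDR3s that share was 3.50%, and lineages of 2 or more held 13.1% of Cre+ and 11.6% of Cre- members. J-end mismatches over the last 6 nucleotides were 35.0% in Cre+; over the last 12 they were 74.1% in Cre+ and 70.5% in Cre-, and the Cre- excess over unswitched cells was 33.2 points. V-end mismatches over 9 nucleotides were 58.9% in Cre+ and 46.5% in Cre-. With each lineage counted once, IGHV1-12 was 2.59% and CDR3s of 10 or fewer amino acids 12.1% in Cre+. The mean CDR3 length in Cre- was 13.6, below the median. Longer windows reach into the joint, where the unswitched background is higher; other causes were not tested. The number of members limits every share, and pooling hides differences between mice. Alternatives for V-end mismatches, IGHD1-1, IGKV14-111, short CDR3s, second light chains and the differences were chosen after seeing the data.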
